A study of Mus musculus with 8 samples.

Results

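The genes described here mark the blood vessels of the mouse retina. They are 8 endothelial genes (Cldn5, Cdh5, Pecam1, Kdr, Flt1, Tek, Tie1 and Plvap) and 2 genes of pericytes, the mural cells that wrap capillaries (Pdgfrb and Rgs5). All probe sets whose only platform symbol was 1 of these names were taken, which gave 18 of the 45037 probe sets used and 10 of the 18193 genes measured. The rule itself used no expression value.

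Endothelial cells of the retina are joined by tight junctions and form the inner blood-retina barrier, and pericytes, recruited by platelet-derived growth factor from the endothelium, keep that barrier closed. Vessel growth and leakage are driven largely by vascular endothelial growth factor (VEGF), made by glia and neurons and read by receptors on the endothelium. Retinal capillaries lack fenestrae, whereas the capillaries of the neighbouring choroid are fenestrated.

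Each sample was total RNA of mouse retina, read on an Affymetrix array of its own. The 4 injected samples came from retinas labelled as injected and as a compound-based treatment. The 4 control samples came from freshly taken retinas labelled as time 0 d. The labels name no strain, age, compound, dose, route of injection, interval or genetic change for either group, and the control is not described as a sham injection, so the compound and the act of injecting cannot be told apart. The labels do not say that the samples of a group came from separate animals, so the tests measure only the spread between these samples, which may be partly technical.

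Values are log2(intensity + 16) after quantile normalisation, and a difference is injected minus control on that scale. Probe sets with a mean below 8.50, or 345 intensity units, were dim and were not tested. Among the 27022 tested probe sets, limma with Benjamini-Hochberg adjustment called 0 at 0.05, which is 0% of them, and the smallest adjusted p was 0.102. At an unadjusted p under 0.05 it counted 1889, or 6.99%, of which 990 were higher and 899 lower in injected retinas. That split was 1313 higher and 626 lower with the authors' scaling, and 640 higher and 1412 lower after centring on array medians, which moved the median difference of all genes to -0.12. With array weights 8 probe sets passed the adjusted threshold (7 higher, 1 lower), and without injected replicate 4 there were 34 (29 higher, 5 lower). The Gapdh ratio of 3′ to 5′ signal, a measure of RNA integrity and labelling, was 2.64, 2.40, 3.14 and 2.75 (log2) in injected replicates 1 to 4, against 1.86, 1.98, 1.75 and 2.23 in control replicates 1 to 4. These groups did not overlap. The same ratio for Actb did, at 5.44 to 5.90 in injected and 5.29 to 5.84 in control retinas, and the part of RNA quality in the differences below was not tested. With 4 arrays a group, the array number sets how precise these values are.

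With all arrays included, limma called no difference between injected and control retinas for any vascular gene in the set. Of the 18 probe sets, 11 passed the signal filter, covering 7 of the 10 genes. None of the 11 passed the adjusted threshold in limma (smallest adjusted p = 0.743), and 0 of the 11 had an unadjusted p under 0.05. With no filter, 0 of the 18 did. At 0 of the 18 probe sets did the 4 injected values lie apart from the 4 control values, against 5.07% of all tested probe sets. The differences leaned slightly downward: at its brightest probe set, the difference was below 0 for 9 of 10 genes, against 49.8% of all genes measured. Among genes that passed the filter it was below 0 for 6 of 7, against 51.5% of all genes tested. The median difference was -0.21 over the 7 tested genes and -0.011 over all genes tested. With the 3 dim genes included it was -0.33 over the 10 genes, against 0.0018 over all genes measured. The 10-gene median was -0.26 with the authors' scaling and -0.44 after centring on array medians.

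**Figure D1:**
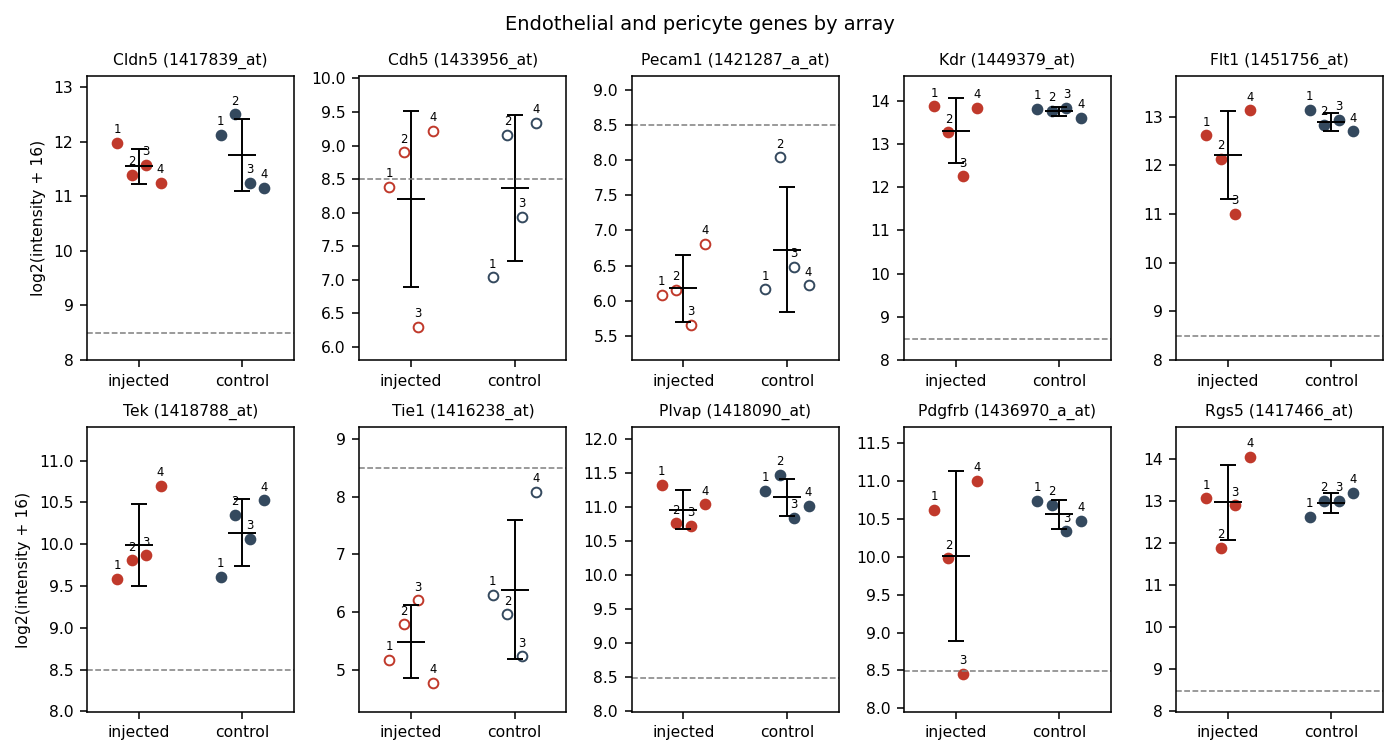
Level of each of the 10 genes at its brightest probe set, as log2(intensity + 16), in the 4 injected (red) and 4 control (dark blue) arrays, numbered by replicate. Horizontal bars are means with SD, the dashed line is the signal floor of 8.50, and open points are probe sets below the filter; the groups overlap in every panel, and injected replicate 3 is the lowest for Kdr, Flt1 and Pdgfrb.

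Cldn5 encodes claudin-5, the main tight-junction strand protein of barrier endothelium. At probe set 1417839_at it measured 11.98, 11.39, 11.57 and 11.24 in injected replicates 1 to 4, against 12.12, 12.50, 11.25 and 11.15 in control replicates 1 to 4. All 4 injected values fell inside the range of the control values, and control replicate 2 was the highest array. The means were 11.55 ± 0.32 in injected and 11.76 ± 0.66 in control retinas (SD, n = 4 each). The difference was -0.21 (SE 0.33, 95% interval -0.95 to 0.54, limma adjusted p = 0.862). Without control replicate 2 it became 0.038.

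Plvap, which forms the diaphragms of fenestrated capillaries and is usually scarce in barrier endothelium, was clearly above the floor. Its probe set 1418090_at gave 11.33, 10.76, 10.73 and 11.04 in injected replicates 1 to 4, against 11.25, 11.47, 10.85 and 11.02 in control replicates 1 to 4. The means were 10.97 ± 0.28 in injected and 11.15 ± 0.27 in control retinas (SD, n = 4 each), and the groups overlapped. Injected minus control was -0.18 (SE 0.22, 95% interval -0.67 to 0.31, adjusted p = 0.823). As with Cldn5, the highest array was control replicate 2, and without it the difference was -0.071. That array also held the highest level of the pigment epithelium and choroid list, whose mean over 14 genes, relative to the control mean, ran from -1.70 to -0.14 in injected and from -1.08 to 1.65 in control retinas. Of those 14 genes 2 were below the floor, and 3 of the 12 tested were lower in injected retinas at an unadjusted p under 0.05, against 2.91% of all genes tested. Of the 3, Rpe65 passed the filter only through its control level, so it had to be lower. Its means were 8.04 in injected and 11.06 in control retinas. Choroidal tissue carries Plvap-rich vessels, and its part in the Plvap value was not tested.

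The commonest pan-endothelial markers were too dim on this array to carry a comparison. Cdh5, the adhesion molecule of endothelial adherens junctions, had 2 probe sets, and both averaged below the floor. The brighter, 1433956_at, read 8.39, 8.90, 6.30 and 9.22 in injected replicates 1 to 4, against 7.04, 9.16, 7.94 and 9.34 in control replicates 1 to 4. Its difference of -0.17 had a 95% interval from -1.86 to 1.53 in the fit with no filter, and injected replicate 3 was the lowest array. The other probe set, 1422047_at, differed by -0.069 (95% interval -1.07 to 0.93). With the authors' scaling the sign turned at both, to 0.018 and 0.14.

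Pecam1, an adhesion molecule of endothelial cell contacts that leukocytes and platelets also carry, was dim at 1421287_a_at. It read 6.09, 6.15, 5.65 and 6.81 in injected replicates 1 to 4, against 6.16, 8.04, 6.48 and 6.22 in control replicates 1 to 4. Only control replicate 2 stood out. The difference was -0.55 (95% interval -1.61 to 0.51 with no filter), and it was -0.11 without that array. Because 3 of the 7 endothelial identity and receptor genes (Cdh5, Pecam1 and Tie1) lay below the floor, the endothelium is represented here mainly by Cldn5, Kdr, Flt1 and Tek.

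Kdr is the main signalling receptor for VEGF on endothelial cells, and Flt1 binds VEGF and placental growth factor tightly while signalling weakly, partly as a soluble trap. The upstream flanks of both genes are shown because Kdr and Flt1 are the VEGF receptor pair. Over all 8 arrays their levels moved together at the brightest Flt1 probe set, though not at the next. Without injected replicate 3 the Pearson r with Kdr was 0.82 at the brightest and 0.78 at the next. Each flank is the 250 bases before the RefSeq gene start on GRCm38.p6, both on the minus strand. Kdr lies at chr5:75978456-75978705 and Flt1 at chr5:147726012-147726261. Capitals mark motifs searched on either strand, so a motif may show as its reverse complement: the GC box GGGCGG, the TATA box TATAAA, the cyclic AMP response element TGACGTCA and the ETS core AGGAAG.
Kdr: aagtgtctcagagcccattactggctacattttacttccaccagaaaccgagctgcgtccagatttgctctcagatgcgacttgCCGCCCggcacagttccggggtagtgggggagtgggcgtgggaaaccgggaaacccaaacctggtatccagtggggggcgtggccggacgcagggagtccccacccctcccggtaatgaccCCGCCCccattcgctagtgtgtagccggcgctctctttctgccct
Flt1: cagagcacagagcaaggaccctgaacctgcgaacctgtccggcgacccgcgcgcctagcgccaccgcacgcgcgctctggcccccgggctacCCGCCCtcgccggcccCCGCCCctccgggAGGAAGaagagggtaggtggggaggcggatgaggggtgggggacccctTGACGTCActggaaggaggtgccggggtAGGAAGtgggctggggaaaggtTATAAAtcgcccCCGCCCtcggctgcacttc
The Kdr flank held 2 GC boxes and none of the other letters, with 61.6% G and C. The Flt1 flank held 3 GC boxes, 2 ETS cores, 1 TATA box and 1 cyclic AMP response element, with 70.4% G and C. Over 32851 mouse promoters of the same length, 32.7% held the GC box, 29.5% the ETS core, 12.4% the TATA box and 1.55% the cyclic AMP response element, and the median G and C content was 52.4%. No marked motif overlapped another. A match in such a window is a description of its letters and not a site of binding.

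Kdr kept a narrow level in control retinas and a wide one in injected retinas. In the authors' units, before quantile normalisation, probe set 1449379_at had intensities of 15071, 10089, 4486 and 13949 in injected replicates 1 to 4, against 14346, 14026, 14581 and 13001 in control replicates 1 to 4. Injected replicate 3 had less than any other array, and injected replicates 1 and 4 lay near the control level. On the normalised log2 scale these values were 13.87, 13.26, 12.25 and 13.83 in injected and 13.80, 13.77, 13.83 and 13.60 in control retinas. The injected mean was 13.30 ± 0.75 and the control mean 13.75 ± 0.10 (SD, n = 4 each). The difference was -0.45 (SE 0.34, 95% interval -1.21 to 0.32, adjusted p = 0.760). Leaving out injected replicate 3 brought it to -0.094.

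Flt1 was read by 4 probe sets that did not behave alike. The brightest, 1451756_at, measured 12.62, 12.13, 11.01 and 13.13 in injected replicates 1 to 4, against 13.14, 12.83, 12.93 and 12.70 in control replicates 1 to 4. Injected replicate 3 was the lowest array, as for Kdr, and injected replicate 4 lay within the control range. The means were 12.22 ± 0.90 in injected and 12.90 ± 0.18 in control retinas (SD, n = 4 each). The difference of -0.68 (SE 0.40, 95% interval -1.58 to 0.22) had an adjusted p of 0.743. It was -0.27 without injected replicate 3 and -0.99 without injected replicate 4. In that last fit Flt1 was the 1 gene of the set with an unadjusted p under 0.05, and its adjusted p was 0.523.

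The second Flt1 probe set, 1419300_at, gave 11.01, 9.71, 12.17 and 11.46 in injected replicates 1 to 4, against 11.83, 11.77, 11.99 and 11.70 in control replicates 1 to 4. Here injected replicate 2 was the lowest array and injected replicate 3 the highest of all 8, although the same array was the lowest at the first probe set. Its difference was -0.74 (SE 0.44, 95% interval -1.74 to 0.26, adjusted p = 0.744), with -0.28 after leaving out injected replicate 2 and -1.12 after leaving out injected replicate 3. Across all 8 arrays the 2 probe sets of this gene had a Pearson r of 0.041, and 0.86 over the 7 arrays without injected replicate 3. The third, 1440926_at, differed by -0.21 (95% interval -0.75 to 0.32, adjusted p = 0.809). The fourth, 1454037_a_at, was below the floor and differed by 0.91 (95% interval -0.50 to 2.31 with no filter). Read as the mean over its 4 probe sets, Flt1 differed by -0.18. Which transcript forms these probe sets bind was not analysed here.

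Tek and Tie1 are the paired endothelial receptors of the angiopoietin system, in which Tek binds the ligands and Tie1 modulates its signal. Tek at 1418788_at measured 9.58, 9.81, 9.87 and 10.70 in injected replicates 1 to 4, against 9.61, 10.35, 10.07 and 10.52 in control replicates 1 to 4. The groups overlapped over nearly their whole range. They averaged 9.99 ± 0.49 in injected and 10.14 ± 0.40 in control retinas (SD, n = 4 each), with a difference of -0.15 (SE 0.29, 95% interval -0.81 to 0.51, adjusted p = 0.890).

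Tie1 was below the floor, with 5.18, 5.79, 6.20 and 4.78 in injected replicates 1 to 4, against 6.29, 5.96, 5.23 and 8.08 in control replicates 1 to 4 at 1416238_at. Control replicate 4 stood above the other 7 arrays. The difference of -0.91 had a 95% interval from -2.29 to 0.48 with no filter and was -0.35 without that array.

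Pdgfrb is the receptor through which pericytes answer platelet-derived growth factor. Probe set 1436970_a_at read 10.61, 9.98, 8.46 and 11.003 in injected replicates 1 to 4, against 10.74, 10.69, 10.33 and 10.47 in control replicates 1 to 4. Injected replicate 3, just below the floor, was again the lowest array, while injected replicate 4 was the highest of all 8. Means were 10.01 ± 1.12 in injected and 10.56 ± 0.19 in control retinas (SD, n = 4 each). The difference was -0.54 (SE 0.48, 95% interval -1.62 to 0.54, adjusted p = 0.779), and -0.027 without injected replicate 3. The dim second probe set, 1417148_at, differed by 0.21 (95% interval -0.55 to 0.96 with no filter).

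Rgs5, a regulator of G-protein signalling that is abundant in pericytes, had 4 probe sets. The brightest, 1417466_at, measured 13.07, 11.89, 12.90 and 14.06 in injected replicates 1 to 4, against 12.63, 13.02, 13.02 and 13.20 in control replicates 1 to 4. Injected replicate 2 was the lowest and injected replicate 4 the highest of the 8 arrays, so the injected values enclosed the control values. The means nearly coincided, at 12.98 ± 0.89 in injected and 12.97 ± 0.24 in control retinas (SD, n = 4 each). The difference was 0.013 (SE 0.40, 95% interval -0.89 to 0.91, adjusted p = 0.995). It turned to -0.071 with the authors' scaling, to -0.10 with array weights and to -0.26 after centring on array medians.

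A second Rgs5 probe set, 1420941_at, showed the same array order at its extremes, with 11.59, 10.74, 10.86 and 12.75 in injected replicates 1 to 4, against 11.80, 11.63, 11.31 and 11.37 in control replicates 1 to 4. Its difference was -0.040 (95% interval -0.96 to 0.88, adjusted p = 0.983). The remaining Rgs5 probe sets, 1420940_x_at and 1420942_s_at, can bind related transcripts. The first of these differed by 0.28 (95% interval -0.16 to 0.71, adjusted p = 0.750), and the second, below the floor, by -0.23 (95% interval -1.49 to 1.02 with no filter). In whole-retina RNA, fewer vascular cells and less RNA per vascular cell cannot be told apart for any of these genes.

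**Figure D2:**
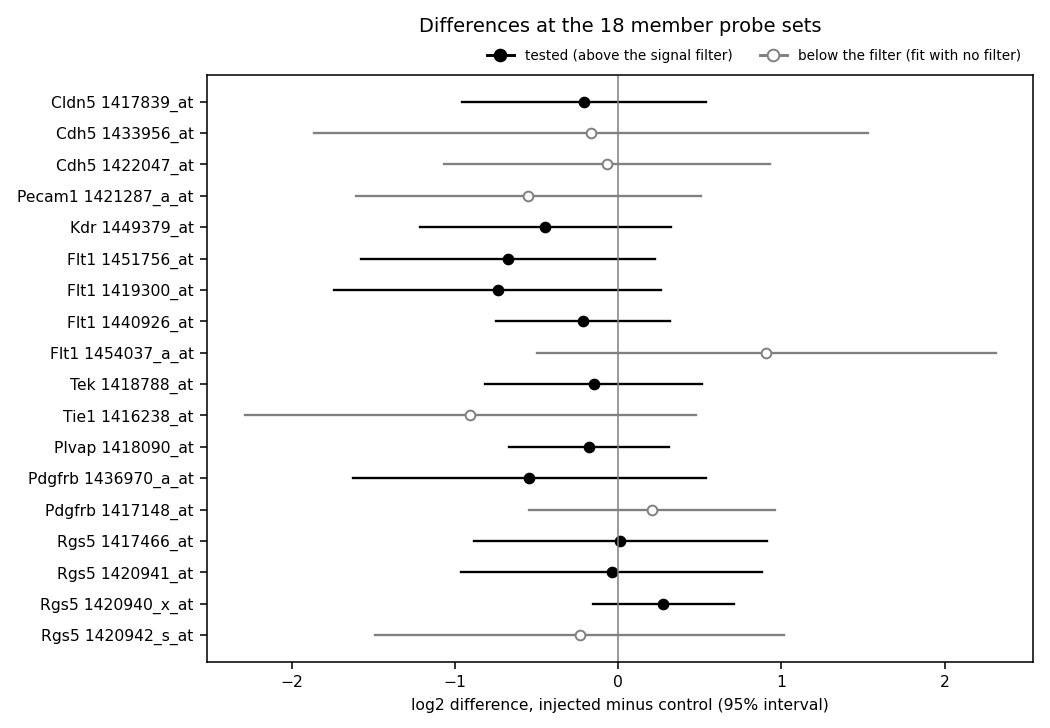
Difference, injected minus control, in log2(intensity + 16) at each of the 18 probe sets, with 95% intervals from limma. Filled points passed the signal filter and open points did not; every interval includes 0.

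The intervals bound what these arrays could show. For Plvap, Flt1 1440926_at and Rgs5 1420940_x_at the 95% interval stayed within 0.75 of 0 on the log2 scale. Among the dim probe sets it reached -1.86 for Cdh5 1433956_at, -2.29 for Tie1 and 2.31 for Flt1 1454037_a_at. A p above the threshold does not show that the levels were equal.

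The vascular genes varied from array to array within each group. Averaged over the 10 genes and relative to the control mean, the set stood at -0.20, -0.46, -0.97 and 0.11 in injected replicates 1 to 4, against -0.19, 0.31, -0.28 and 0.16 in control replicates 1 to 4. On this mean, which held 3 genes below the floor, injected replicate 3 was the lowest array and control replicate 2 the highest. Among the tested genes at their brightest probe sets, control replicate 2 exceeded injected replicate 4 only for Cldn5 and Plvap. Injected replicate 4 was the higher of these arrays for Kdr, Flt1, Tek, Pdgfrb and Rgs5. Without injected replicate 3 the median difference over the 10 genes was -0.11, with 8 below 0, and without control replicate 2 it was -0.095, with 7 below 0. With both left out it was 0.014, and 4 of the 10 genes were below 0. As these were the extreme arrays of their groups on this mean, leaving them out had to raise the difference. Without injected replicate 4 the median was -0.57, with all 10 below 0. Injected replicate 3 also had the highest array median, 766 intensity units against 495 to 694 on the other arrays, the highest Gapdh ratio, and the lowest weight when arrays were weighted by their agreement with the group fits (0.191).

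**Figure D3:**
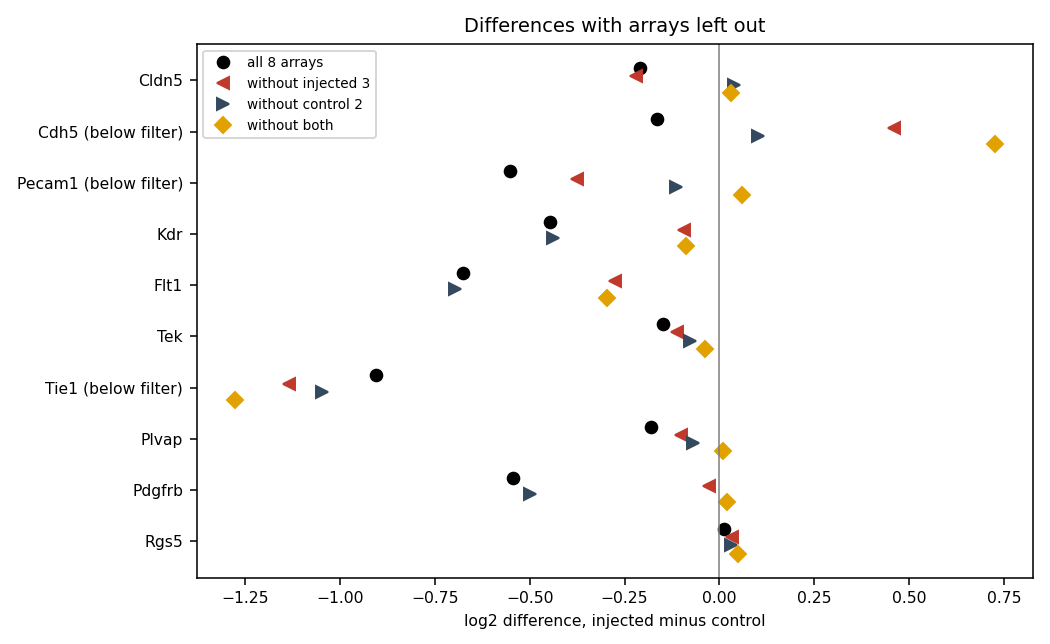
Difference, injected minus control, in log2(intensity + 16) for each gene at its brightest probe set, with all 8 arrays, without injected replicate 3, without control replicate 2, and without both. Kdr and Pdgfrb lie at -0.094 and -0.027 once injected replicate 3 is left out, and Cldn5 at 0.038 once control replicate 2 is left out.

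Across the 8 arrays, which share their normalisation, some of the receptors moved together and others did not. Pearson r was 0.97 between Kdr and Flt1 1451756_at and 0.97 between Kdr and Pdgfrb, but -0.079 between Kdr and Flt1 1419300_at and -0.12 between that probe set and Pdgfrb. Over the 7 arrays without injected replicate 3 these 4 values were 0.82, 0.78, 0.78 and 0.61, so that array set much of both the likeness and its lack. Tek had an r of 0.20 with Kdr, 0.30 with Flt1 1451756_at and 0.31 with Pdgfrb. Pdgfrb had an r of 0.35 with the brightest Rgs5 probe set, 1417466_at, and of 0.71 with 1420941_at. Without injected replicate 3 these last values were 0.81 and 0.94. Cldn5 followed Plvap (r = 0.79, or 0.63 without control replicate 2) more than it followed Kdr (r = 0.17).

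Control replicate 2, the array highest for Cldn5, Plvap and Pecam1, was also the highest for fibroblast and smooth muscle markers. The fibroblast and sclera list of 8 genes, none below the floor, ran from -0.90 to -0.20 in injected and from -1.02 to 1.85 in control retinas. The 7 contractile smooth muscle genes, 5 of them below the floor, ran from -1.04 to 0.14 in injected and from -0.98 to 1.85 in control retinas. In both lists the control maximum was control replicate 2. The lens list of 9 genes, 4 below the floor, ran the other way on that array, which was the lowest of all 8. Its mean was 0.48, 3.89, 1.74 and 1.15 in injected replicates 1 to 4, against 0.35, -1.06, 1.19 and -0.48 in control replicates 1 to 4. Of its 5 tested genes 3 were higher in injected retinas at an unadjusted p under 0.05, against 3.77% of all genes tested, and their median difference was 2.46. Crygd and Crybb2, crystallins of that list, passed the filter only through their injected level. The part of neighbouring tissue in the vascular values was not tested.

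**Figure D4:**
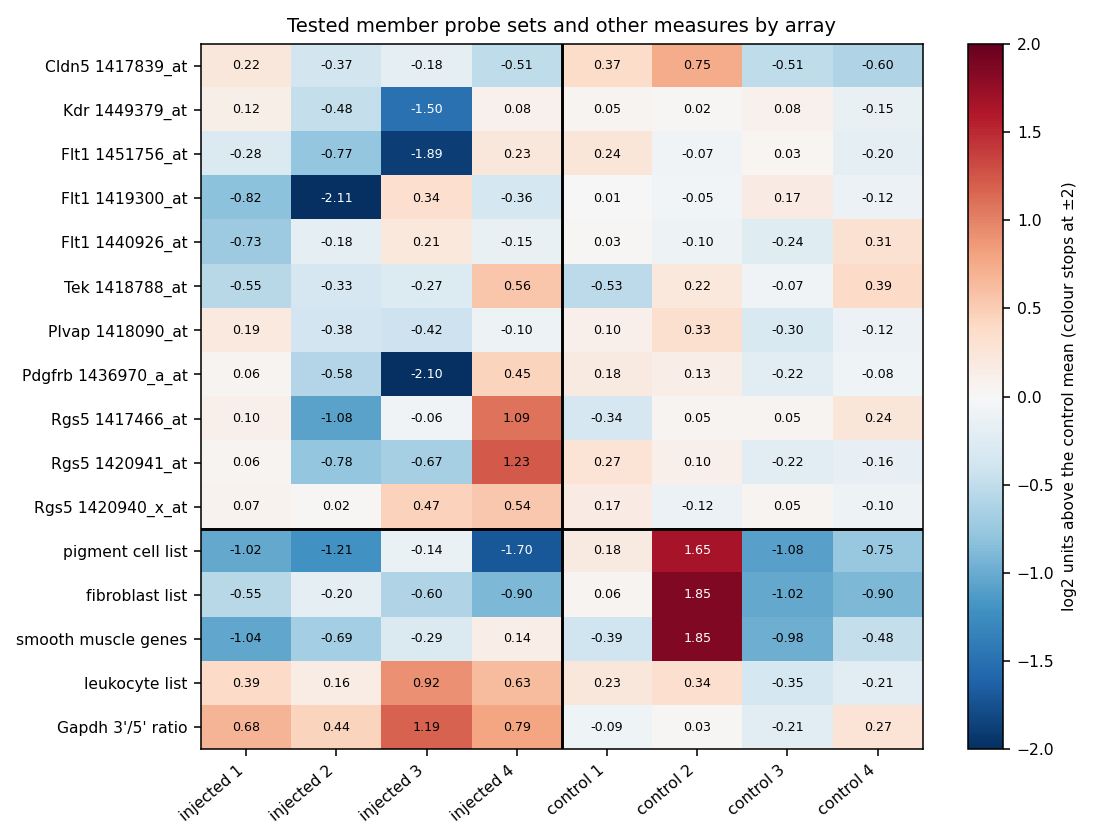
Each tested vascular probe set and 5 other measures on the 8 arrays, as log2 units above the control mean; colour stops at ±2, and values are printed in the cells. Injected replicate 3 is low for Kdr (-1.50), Flt1 1451756_at (-1.89) and Pdgfrb (-2.10), and control replicate 2 is high for the pigment, fibroblast and smooth muscle genes (1.65 to 1.85).

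Pecam1 is also carried by leukocytes and platelets, and lists that hold markers of such cells were read beside it. The leukocyte list of 12 genes, 3 below the floor, ran from 0.16 to 0.92 in injected and from -0.35 to 0.34 in control retinas, and 6 of its 9 tested genes were higher in injected retinas at an unadjusted p under 0.05, against 3.77% of all genes tested. The red cell and platelet list of 6 genes, 4 below the floor, ran from 0.18 to 1.37 in injected and from -0.73 to 0.50 in control retinas. Markers of retinal neurons and glia, 10 genes with none below the floor, ran from -0.62 to -0.03 in injected and from -0.04 to 0.09 in control retinas. At an unadjusted p under 0.05, 3 of the 10 were lower, against 2.91% of all genes tested. These were Crx, Arr3 and Opn1sw, all genes of photoreceptors. Of the 10 differences 8 were below 0, while Gfap and Glul differed by 0.72 and 0.017. The part of these lists in the vascular values was not tested.

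The genes most like the vascular profile over the 8 arrays were sought among 22221 tested probe sets outside the set. For the mean of the 8 endothelial genes they were Itih5, a heavy chain that binds hyaluronan (r = 0.97), Ctsl, the lysosomal protease cathepsin L (r = 0.97), and Pygb, the brain glycogen phosphorylase (r = 0.96). For the mean of Pdgfrb and Rgs5 they were Igsf3, an immunoglobulin-superfamily protein (r = 0.98), Ilkap, a phosphatase (r = 0.98), and Pfkp, a phosphofructokinase (r = 0.97). Without injected replicate 3 these correlations lay between 0.91 and 0.97. The points share arrays and normalisation, and so many candidates yield high values with few arrays, so they describe this set of arrays.

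Other genes of the vessel wall and of its signals were read from 6 lists with 128 genes, of which 123 had a probe set and 90 passed the filter. None passed the adjusted threshold (smallest adjusted p = 0.393). At an unadjusted p under 0.05, 2 of the 90 were higher in injected retinas, against 3.77% of all genes tested, and 7 were lower, against 2.91%. Of the 7, Tm4sf1 and Vegfb passed the filter only through their control level, so they had to be lower. The groups did not overlap for 6 of the 90 (1 higher, 5 lower), or 6.67%, near the 5.07% of all tested probe sets. The median difference over the 90 was -0.13.

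**Figure D5:**
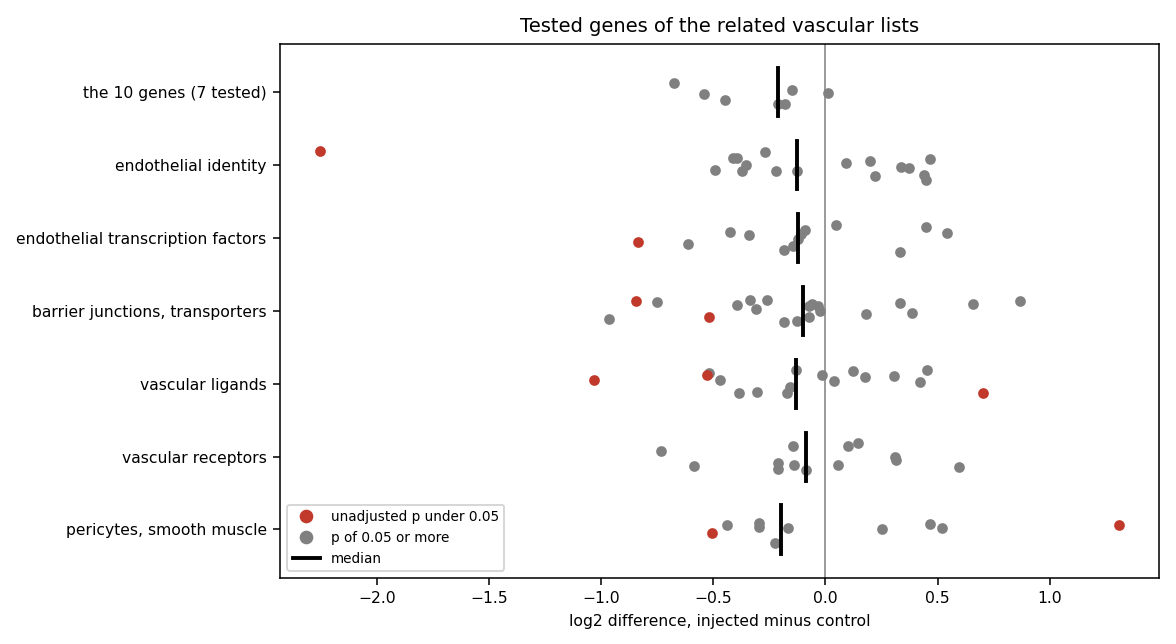
Difference, injected minus control, in log2(intensity + 16) for each tested gene of the 10-gene set and of the 6 related lists. Red points have an unadjusted p under 0.05, grey points do not, and black bars are medians, which lie between -0.21 and -0.085; no point passed the adjusted threshold.

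Among the VEGF-family ligands no difference passed the adjusted threshold. Vegfa, the principal one, at its brightest probe set 1420909_at, averaged 12.45 ± 0.43 in injected and 12.61 ± 0.36 in control retinas (SD, n = 4 each), a difference of -0.16 (adjusted p = 0.874) that was 0.039 without injected replicate 3. Its second tested probe set, 1451959_a_at, differed by -0.89 (adjusted p = 0.778). With an injected mean of 8.36, that probe set passed the filter only through its control mean of 9.24, so it had to be lower. Vegfb, a ligand of Flt1, read 8.57, 8.10, 9.49 and 7.13 in injected replicates 1 to 4, against 9.51, 9.54, 9.38 and 9.00 in control replicates 1 to 4. Injected replicate 3 lay inside the control range and the other 3 below it. The difference was -1.03 (SE 0.43, adjusted p = 0.712), with an injected mean of 8.32 below the floor and a control mean of 9.35 that carried it past the filter. Placental growth factor, Pgf, binds Flt1 and not Kdr; it fell outside the naming rule and was chosen after its values were seen. It was dim, with 8.32, 7.95, 7.03 and 8.87 in injected replicates 1 to 4, against 5.75, 5.83, 5.91 and 6.20 in control replicates 1 to 4. The groups did not overlap, although in injected retinas the mean of 8.04 was below the floor too. With no filter the difference was 2.12 (SE 0.38, adjusted p = 0.404).

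Angpt1, the activating ligand of Tek that pericytes and other perivascular cells make, had the smallest p among the ligands that passed the filter. Its probe set 1439066_at read 10.24, 10.28, 10.55 and 10.17 in injected replicates 1 to 4, against 9.64, 9.81, 9.39 and 9.59 in control replicates 1 to 4. All 4 injected values lay above all 4 control values. The difference was 0.70 (SE 0.18, 95% interval 0.30 to 1.11, adjusted p = 0.532), and it ranged from 0.63 to 0.77 as each array was left out. A second, dim Angpt1 probe set differed the other way, by -0.999 with no filter (adjusted p = 0.825). Angpt2, the context-dependent antagonist, differed by 0.18 (adjusted p = 0.842).

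Of the other ligands, Jag1, a Notch ligand of endothelial and mural cells, averaged 11.84 ± 0.16 in injected and 12.36 ± 0.13 in control retinas (SD, n = 4 each), without overlap. The difference was -0.53 (SE 0.17, adjusted p = 0.638), while a second tested probe set of Jag1 differed by 0.26. Ndp, the Müller glial ligand norrin that maintains the barrier, differed by 0.45 (adjusted p = 0.756). Its receptor Fzd4 differed by -0.14 at its brightest probe set (adjusted p = 0.873), which turned to 0.015 with the authors' scaling, and by -0.76 at the next. Pdgfb, the endothelial ligand of Pdgfrb, differed by 0.12 (adjusted p = 0.878).

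Among receptors outside the 10 genes, each read at its brightest probe set, 0 of 13 tested had an unadjusted p under 0.05, and the median was -0.085. The smallest p values belonged to Notch4, an endothelial Notch receptor (-0.73, adjusted p = 0.725), Tgfbr2, a receptor of transforming growth factor beta (0.31, adjusted p = 0.762), and Nrp1, a VEGF co-receptor (0.31 at the brightest probe set, adjusted p = 0.769). Notch4, with an injected mean of 8.30, passed the filter only through its control mean of 9.03, so it had to be lower. The dim Tgfbr2 probe sets 1422019_at and 1425444_a_at differed the other way, by -0.71 and -1.16 with no filter. Nrp1 had 4 tested probe sets, all with differences above 0. The widest, at 1457198_at, was 0.70 (95% interval 0.19 to 1.21, adjusted p = 0.625), with an unadjusted p under 0.05.

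Genes of endothelial identity and surface gave 1 lower and 0 higher of 17 tested at an unadjusted p under 0.05, with a median of -0.13. The lower gene was Tm4sf1, a tetraspanin-like surface protein rich in endothelium. At 1450958_at it read 6.77, 8.53, 6.62 and 8.28 in injected replicates 1 to 4, against 9.50, 10.24, 10.09 and 9.37 in control replicates 1 to 4. The groups did not overlap, and the injected mean of 7.55 lay below the floor, so the probe set was tested only because of its control mean of 9.80. Without control replicate 2 or 3 it did not pass the filter. The difference was -2.25 (SE 0.46, 95% interval -3.29 to -1.22, adjusted p = 0.393), and 2 other, dim probe sets of the gene differed by -0.44 and 0.54. Egfl7, a secreted endothelial matrix factor, differed by -0.40 at its brightest probe set (adjusted p = 0.725) and by 0.28 and -0.24 at the other tested ones. A dim Egfl7 probe set, 1451427_a_at, differed by -1.39 with no filter (adjusted p = 0.639), and its groups did not overlap. S1pr1, the sphingosine phosphate receptor that steadies endothelial junctions, differed by -0.49 (adjusted p = 0.742).

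Endothelial transcription factors gave 1 lower and 0 higher of 13 tested, with a median of -0.12. Klf4, a shear-responsive factor that other cell types also use, measured 9.84, 9.85, 10.46 and 9.97 in injected replicates 1 to 4, against 10.44, 11.18, 10.57 and 11.27 in control replicates 1 to 4, with a slight overlap. Its difference was -0.83 (SE 0.25, adjusted p = 0.597). Hey2, an arterial Notch target, differed by 0.54 (adjusted p = 0.725), and Nr2f2, the venous factor, by -0.61 at its brightest probe set (adjusted p = 0.742). At 1416158_at, another tested probe set of Nr2f2, the groups did not overlap and the difference was -0.63 (adjusted p = 0.709), with an unadjusted p under 0.05.

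Barrier junction and transporter genes gave 2 lower and 0 higher of 20 tested, with a median of -0.10. Slco1c1, a thyroxine transporter of barrier endothelium and astrocytes, read 10.04, 10.15, 9.86 and 8.94 in injected replicates 1 to 4, against 10.35, 10.90, 10.64 and 10.49 in control replicates 1 to 4. The groups did not overlap, and the difference was -0.85 (SE 0.28, adjusted p = 0.656). Cav1, the caveolar coat protein of endothelium and Müller glia, read 15.06, 14.84, 14.17 and 14.84 in injected replicates 1 to 4, against 15.24, 15.19, 15.29 and 15.26 in control replicates 1 to 4. It too was without overlap, at -0.52 (SE 0.22, adjusted p = 0.712) and -0.32 without injected replicate 3, the lowest array. The transferrin receptor Tfrc differed by -0.34 (adjusted p = 0.739).

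Transporters and junction proteins that define the barrier behaved alike only in part. Slc2a1, the glucose transporter of barrier endothelium and photoreceptors, differed by -0.19 at its brightest probe set (adjusted p = 0.797), and by -0.52 and -0.75 at 2 others, where the groups did not overlap (adjusted p = 0.712 and 0.709). Mfsd2a, the lipid transporter that restrains transcytosis, differed by -0.39 (adjusted p = 0.820). The tight-junction protein occludin, Ocln, differed by 0.66 at one probe set and by -0.35 at another (adjusted p = 0.753 and 0.816).

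Mural cell genes beyond Pdgfrb and Rgs5 gave 1 higher and 1 lower of 10 tested, with a median of -0.20. Vtn, a matrix protein made by pericytes and, in the retina, by photoreceptors too, read 13.27, 13.01, 12.77 and 13.26 in injected replicates 1 to 4, against 13.62, 13.54, 13.72 and 13.47 in control replicates 1 to 4. The groups did not overlap, with a difference of -0.51 (SE 0.18, adjusted p = 0.705), and the other tested probe set of Vtn differed by -0.63. Foxd1, a factor of pericyte precursors that the developing retina also uses, read 12.18, 12.27, 11.92 and 9.59 in injected replicates 1 to 4, against 10.01, 10.73, 9.79 and 10.19 in control replicates 1 to 4. Injected replicate 4 lay below every control array and the other 3 injected arrays above them. The difference was 1.31 (SE 0.56, adjusted p = 0.712), and 1.96 without injected replicate 4 (adjusted p = 0.0459). As that array was the lowest of its group, leaving it out had to raise the difference, and it narrowed the injected spread. Notch3, the mural Notch receptor, differed by 0.47 (adjusted p = 0.744), and Cspg4, the pericyte proteoglycan NG2, by 0.52 (adjusted p = 0.775). Cspg4, with a control mean of 8.32, passed the filter only through its injected mean of 8.83, so it had to be higher. The other, dim probe set of Cspg4 differed by -0.24 with no filter.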

How the data were processed

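The deposited values were linear intensities by probe set. Their mean after leaving out 2% at each end was 2500 on each of the 8 arrays; which software made them and scaled them to this level is not given in the sources used here. Of 45101 probe sets, 64 array controls were left out; 34945 had 1 symbol in the platform annotation, 932 several and 9160 none. Array medians of the deposited intensities ran from 495 to 766, a ratio of 1.55, so arrays were quantile-normalised and transformed to log2(intensity + 16), which understates changes of dim genes. Correlations between arrays ran from 0.868 to 0.936.

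Probe sets at or above the 40th percentile of mean log2 value (8.50) were tested with limma 3.58.1 (lmFit, eBayes; R 4.3.3, statmod 1.5.0) on all 8 arrays without covariates, with Benjamini-Hochberg adjustment over 27022 probe sets. Genes below the filter are described from the fit with no filter. A gene with several probe sets is represented by the brightest. Identifiers with x_at or s_at mark probe sets that may bind transcripts of other genes too. The fit was tested on simulated data.

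Groups came from the titles and descriptions of the samples. The genes and lists were chosen with earlier results of these data known. Named are all 10 genes, of each related list up to 3 genes with the smallest p, a set of 9 vascular genes in any case, and the 3 tested genes most like each profile; Pgf was added after its values were seen. The alternatives tried were no filter, pseudocounts of 1 and 64, the authors' scaling, median centring of arrays, array weights, a prior trended and robust, a replicate block, each array left out, 2 arrays left out together, and the mean over probe sets. Gene coordinates are left out, since no build goes with the platform annotation; promoters come from RefSeq (GRCm38.p6), where 6 of the 10 genes had an entry. Figures were drawn with matplotlib 3.10.9.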

Additional observations from a re-analysis of the deposited data

Results flagged for a closer look

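Of 92 groups of 4 arrays examined, 5 held an array far from the other 3 by Dixon's criterion, which chance meets in about 1 of 20 groups. None concerned the 10 vascular genes. Tfrc was 15.28 in injected replicate 2, against 14.83 to 14.89 in the other injected arrays. Foxd1 was 9.59 in injected replicate 4, against 11.92 to 12.27. Pdgfb was 8.38 in injected replicate 3, against 8.69 to 8.75 in the other injected arrays, and 9.01 in control replicate 1, against 8.32 to 8.39 in the other controls. Ocln (1440220_at) was 7.66 in control replicate 3, against 9.64 to 9.80. The causes were not tested.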

How the results depend on the processing

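Of the alternatives to each value, 842 kept direction and side of the threshold or, for values with no test, moved by less than the spread between arrays, 1 gained a call, 4 counts moved and 33 turned in sign, 27 of these at the 10 vascular genes. The count of probe sets called was 8 with array weights and 0 to 34 as each array was left out (34 without injected replicate 4). The count of vascular genes at an unadjusted p under 0.05 was 0 to 1 as each array was left out. With control replicate 2 and injected replicate 3 left out together, 4 of the 10 genes were below 0 and their median turned to 0.014, a move within that spread. In that setting the differences were 0.030 for Cldn5, 0.73 for Cdh5 1433956_at, 0.060 for Pecam1, 0.0089 for Plvap, 0.019 for Pdgfrb 1436970_a_at, 0.20 for Rgs5 1420941_at, 0.096 for Fzd4 and -0.025 for Angpt2. With the authors' scaling they were 0.018 and 0.14 for Cdh5 (1433956_at, 1422047_at), -0.071 for Rgs5 1417466_at and 0.015 for Fzd4. Centring on array medians gave -0.26 for Rgs5 1417466_at. Array weights gave 0.31 and 0.012 for the same Cdh5 probe sets and -0.10 for Rgs5 1417466_at. As each array was left out, Cldn5 ran from -0.41 to 0.038, Cdh5 1433956_at from -0.61 to 0.46, Cdh5 1422047_at from -0.34 to 0.23, Pdgfrb 1417148_at from -0.0062 to 0.37, Rgs5 1417466_at from -0.35 to 0.37, Rgs5 1420941_at from -0.47 to 0.20 and Rgs5 1420942_s_at from -0.60 to 0.30. Over the same settings Vegfa ran from -0.33 to 0.039, Fzd4 from -0.24 to 0.072 and Angpt2 from -0.019 to 0.33. The cause was not tested. Samples with the same replicate number did not deviate together (r from -0.029 to 0.084, and 1 of 4 matched its own number best). With a replicate block, 0 probe sets were called, and 962 were higher and 852 lower at an unadjusted p under 0.05. Signal near the floor limits Cdh5, Pecam1 and Tie1.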
